A study of Mus musculus with 6 samples.

Results

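The genes described here are 31 members of the sterol pathway and its control by SREBP, picked by symbol from the 21033 genes of the count table: 19 enzymes of sterol synthesis, 7 genes that produce, hold or process SREBP, and 5 genes of sterol transport, export, receptor turnover and esterification. Their transcripts were counted in synovial fibroblasts, which form much of the joint lining and the tissue under it. All cells were primary, were grown for 3 passages and were taken from the ankles of hTNFtg animals, a strain with a transgene for human TNF. Cells of 3 libraries received 10 µM compound 33, a small molecule named in the title of the series together with Hyou1, for 48 h, and cells of the other 3 libraries received DMSO, the vehicle, for the same time. The transgene was therefore present in both groups, and no cells without it are among the samples. What the culture medium held in serum and sterols was not given in the sources used here.

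Cholesterol is built from acetyl-CoA through mevalonate, isoprene units, squalene and lanosterol, and the genes of nearly every step are switched on together by the transcription factors SREBP1 and SREBP2. Both are made as membrane proteins of the endoplasmic reticulum, where Scap binds them and the Insig proteins hold the complex back while sterols are plentiful. When sterols run low, Scap escorts SREBP to the Golgi, proteases release its active part, and the sterol genes are transcribed. Oxysterols, which accumulate when sterols are plentiful, activate the receptor LXR, whose targets include the exporters Abca1 and Abcg1.

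SREBP recognises a sterol regulatory element and, like other factors of its structural class, the E-box, and it works beside NF-Y and Sp1. RefSeq promoter windows (build GRCm38.p6, 250 bases before to 50 after a gene's start) matched 26 of the 31 members. Both strands of these windows were searched for 4 motifs. The element core TCACNCCAC was found in 1 of the 26, Hmgcs1, where 1.38% of the 7985 tested genes with a window and 1.44% of all 27025 genes with a window held it. The E-box CACGTG was found in 6 of the 26 (Abca1, Dhcr7, Hsd17b7, Insig1, Sc5d and Scap), against 12.6% of tested genes and 8.09% of all genes. CCAAT, the NF-Y box, was found in 21 of the 26, against 43.0% and 41.1%, and GGGCGG, the Sp1 box, in 23 of the 26, against 72.2% and 38.2%. A window with both of the last motifs was found for 18 of the 26 members, against 28.6% of tested genes and 14.5% of all genes. GGGCGG and CCAAT read on the other strand can share bases. The 30-base stretches below are printed because they hold the element core or the E-box before the RefSeq start of members described in the results. Each runs 5′ to 3′ in the direction of its gene, with the motif in capitals.

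Hmgcs1, chr13:119690204-119690233, plus strand: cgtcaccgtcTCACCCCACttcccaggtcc
Insig1, chr5:28071299-28071328, plus strand: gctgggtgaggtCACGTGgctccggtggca
Hsd17b7, chr1:169969331-169969360, minus strand: ggacccttgtgtCACGTGgctccgcccctc
Sc5d, chr9:42264381-42264410, minus strand: ctacgcggcgacCACGTGaccgccgcgacc
Dhcr7, chr7:143823223-143823252, plus strand: cgctgtgatgaaCACGTGgcaaaaagcagc
Abca1, chr4:53160025-53160054, minus strand: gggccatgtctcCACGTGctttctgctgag

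The motif begins 137 bases before the start that the RefSeq window uses in Hmgcs1, 101 in Insig1, 143 in Hsd17b7, 98 in Sc5d, 164 in Dhcr7 and 147 in Abca1. GENCODE M21, from which gene coordinates are taken, places some starts elsewhere: that of Insig1 is nearer the motif, and that of Dhcr7, at 143823145, lies before the printed stretch. The E-box of Scap, 40 bases before one RefSeq start and 29 after another, is not printed because it lies inside the transcript from the second of these. These matches are descriptions of letters, not of binding.

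Libraries held 1594052 to 2384850 reads with compound 33 and 1913730 to 2897207 with DMSO, and 1 read corresponded to between 0.348 and 0.611 CPM, the reads of a gene per 1000000 reads of the scaled library. The kit reads the 3′ end of each transcript, so CPM carries no length term. Levels of different genes are set beside each other on that basis. How fully the reads of each gene were captured and assigned was not tested, so the order of genes by level is approximate. All 10 fibroblast markers looked up, Vim, Pdgfra and Col1a1 among them, were detected and tested. None passed an adjusted p of 0.05 in edgeR's test. Before adjustment 3 of the 10, Thy1, Dcn and Lum, were under 0.05 as lower with compound 33, against 3.23% of all genes tested. Another 1, Pdgfrb, was under 0.05 as higher, against 3.64%. The 10 markers summed to 9332 to 11549 CPM with compound 33 and 10650.3 to 12884 CPM with DMSO. The 4 T and B cell markers had 0 reads in every library, and the 9 macrophage markers summed to 53.1 to 109 CPM with compound 33 and 66.3 to 139 CPM with DMSO. The 5 endothelial markers summed to 4.63 to 9.54 CPM with compound 33 and 2.09 to 3.71 CPM with DMSO, with Pecam1 at 0 reads throughout. These sums did not overlap but rested on 9, 23 and 9 reads with compound 33, against 7, 7 and 6 with DMSO. Of those reads Tek held 7, 17 and 4 with compound 33, against 4, 1 and 3 with DMSO. No endothelial marker had enough reads to be tested. The 5 adipocyte markers, nearly all of it Fabp4, summed to 102 to 166 CPM with compound 33 and 51.4 to 148 CPM with DMSO, with Lep and Cidec at 0 reads. The 5 chondrocyte markers, mostly Comp, summed to 14.1 to 63.8 CPM with compound 33 and 21.2 to 29.9 CPM with DMSO, with Acan at 0 reads. The part of marker levels in the results was not tested. Fewer cells of a type and less RNA per cell cannot be told apart in such bulk samples. Whether replicates came from different animals or cultures is not in the labels, and every p-value therefore reflects the library-to-library spread alone, part of which may be technical. Pairs of libraries of 1 group differed by 4.56 to 18.9 times the sampling variance expected from counting, and all were counted as separate samples.

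The question of the comparison is which transcripts of these fibroblasts differ after compound 33. All 31 members had enough reads to be tested, and no member passed edgeR's quasi-likelihood test at an adjusted p of 0.05, the lowest adjusted p being 0.683 for Srebf2. Over all genes tested, 3 of 10124 passed, or 0.0296%. Before adjustment 1 member lay under 0.05, higher with compound 33, where 3.64% of all genes lay under it as higher, 3.23% as lower and 6.87% in all. The groups did not overlap for that same gene, Srebf2, higher with compound 33, and for no member in the lower direction, against 6.64% of all genes higher and 6.73% lower. Both shares of members are near or under those of all genes. The median log2 fold change of the members, compound 33 over DMSO, was 0.10, beside -0.0091 over all genes tested, with 22 members positive and 9 negative.

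**Figure D1:**
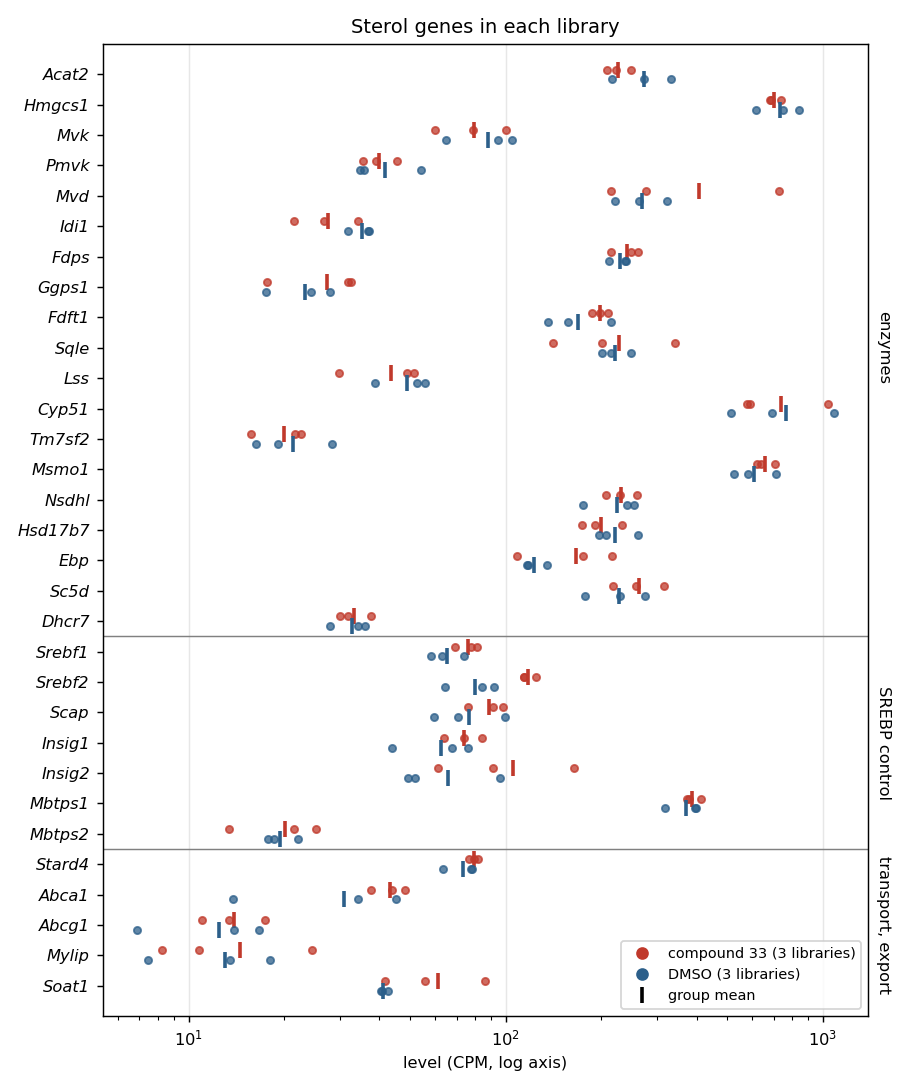
Level of each of the 31 genes in every library, in CPM on a log axis, with compound 33 libraries in red above DMSO libraries in blue and a bar at each group mean. The groups overlap for every gene except Srebf2, and levels run from 6.89 CPM for Abcg1 to 1082 CPM for Cyp51, both in DMSO replicate 1.

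Measured levels differed widely within the pathway. Averaged over the 6 libraries, Cyp51, Hmgcs1 and Msmo1 stood highest, at 749.6, 718 and 631 CPM, and their ranges over the libraries overlapped. The ranges of Msmo1 and of the fourth gene, the SREBP protease Mbtps1 at 379 CPM, did not overlap. Below it every gene in the order overlapped its neighbour, down to Mylip at 13.8 CPM and Abcg1 at 13.2 CPM. Together the 31 genes took 0.518% to 0.618% of the reads with compound 33 and 0.483% to 0.560% with DMSO.

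The pathway begins with Acat2, the cytosolic thiolase that joins acetyl-CoA units, and Hmgcs1, the synthase that makes HMG-CoA. Hmgcs1, the member with the element core in its promoter window, stood at 739.7, 679 and 685 CPM with compound 33, against 839, 614 and 751 CPM with DMSO. Its compound 33 libraries all lay inside the DMSO range. The log2 fold change was -0.068 (SE 0.21, 95% interval -0.52 to 0.38, adjusted p = 0.967) in edgeR's quasi-likelihood test, so the interval runs from 0.699-fold to 1.30-fold. Acat2 stood at 209, 222 and 248 CPM with compound 33, against 273, 332 and 217 CPM with DMSO, with the groups overlapping and a log2 fold change of -0.27 (95% interval -0.74 to 0.19). Acat2 has a near-identical copy, Acat3, and reads that match both could have been split or dropped, so its count is uncertain.

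Mevalonate is then phosphorylated by Mvk and Pmvk, decarboxylated by Mvd and isomerised by Idi1. Mvd had the largest estimate among the enzymes, with 215, 278 and 728 CPM with compound 33, against 322, 221 and 262 CPM with DMSO. A single library, compound 33 replicate 3, lay far above all others, and the other 2 compound 33 libraries lay below or within the DMSO range. The log2 fold change was 0.60 (SE 0.37, 95% interval -0.21 to 1.41, adjusted p = 0.823) in edgeR's test, and it was -0.11 without compound 33 replicate 3 and 0.90 without compound 33 replicate 1. Idi1 stood at the other end, with 34.2, 21.6 and 26.8 CPM with compound 33, against 31.8, 37.0 and 36.9 CPM with DMSO. Here only compound 33 replicate 1 reached the DMSO range, and the log2 fold change, -0.37 (95% interval -0.91 to 0.17), was the lowest of all members. Mvk averaged 79.7 ± 20.2 CPM with compound 33 and 87.9 ± 20.7 CPM with DMSO, and Pmvk averaged 39.9 ± 4.99 CPM with compound 33 and 41.5 ± 10.9 CPM with DMSO (SD, n = 3 each), with log2 fold changes of -0.14 and -0.048.

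Fdps joins the isoprene units to farnesyl diphosphate, from which sterols and the lipid anchors of many proteins derive, and Ggps1 adds a further unit for geranylgeranyl anchors. Fdps stood at 249, 262 and 215 CPM with compound 33, against 212, 238 and 239 CPM with DMSO, and its log2 fold change was 0.074 (95% interval -0.35 to 0.49). Ggps1 averaged 27.4 ± 8.34 CPM with compound 33 and 23.2 ± 5.27 CPM with DMSO (SD, n = 3 each), a log2 fold change of 0.24 (95% interval -0.40 to 0.88). In both, the groups overlapped. Exons of Ggps1 overlap those of Arid4b on the other strand, and reads of the pair cannot be told apart unless strand was used in the counting, which the sources used here do not state.

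Squalene is made by Fdft1, oxidised by Sqle and closed into lanosterol by Lss. Sqle, a rate-limiting enzyme of this branch, stood at 141, 202 and 341 CPM with compound 33, against 249, 201 and 214 CPM with DMSO. Its compound 33 libraries held both the lowest and the highest value of the 6, and its log2 fold change of 0.042 (95% interval -0.56 to 0.65) was -0.36 without compound 33 replicate 3. The interval of Sqle runs from 0.677-fold to 1.57-fold. Fdft1 averaged 198 ± 11.5 CPM with compound 33 and 169 ± 40.2 CPM with DMSO, and Lss averaged 43.4 ± 11.8 CPM with compound 33 and 48.9 ± 8.96 CPM with DMSO (SD, n = 3 each). Their log2 fold changes were 0.23 (95% interval -0.24 to 0.70) and -0.18 (95% interval -0.75 to 0.39), with opposite signs and overlapping groups.

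Lanosterol is turned into cholesterol by the demethylase Cyp51, the reductase Tm7sf2, the C4-demethylation enzymes Msmo1, Nsdhl and Hsd17b7, the isomerase Ebp, the desaturase Sc5d and the final reductase Dhcr7. Cyp51, the member with the highest mean CPM, stood at 577, 591 and 1039.8 CPM with compound 33, against 1082, 515 and 692 CPM with DMSO. One library of each group, compound 33 replicate 3 and DMSO replicate 1, stood apart at the top, and the group means nearly coincided. The log2 fold change was -0.052 (SE 0.30, 95% interval -0.71 to 0.60, adjusted p = 0.985) in edgeR's test, and with each library left out in turn it ran between -0.38 without compound 33 replicate 3 and 0.29 without DMSO replicate 1. Msmo1 was steadier, with 638, 622 and 707 CPM with compound 33, against 524, 583 and 713 CPM with DMSO, and a log2 fold change of 0.11 (95% interval -0.34 to 0.56). Ebp stood at 109, 175 and 216 CPM with compound 33, against 135, 117 and 117 CPM with DMSO. Here 2 compound 33 libraries lay above every DMSO library and the remaining one below them all, and the log2 fold change of 0.44 (SE 0.25, 95% interval -0.099 to 0.98, adjusted p = 0.799) did not pass edgeR's test. Sc5d averaged 264 ± 49.5 CPM with compound 33 and 227 ± 48.0 CPM with DMSO (SD, n = 3 each), a log2 fold change of 0.22 (95% interval -0.28 to 0.71). For Nsdhl, Hsd17b7, Tm7sf2 and Dhcr7 the log2 fold changes were 0.050, -0.15, -0.095 and 0.025. Exons of Cyp51 overlap those of Akap9 on the other strand, and exons of Tm7sf2 overlap Vps51 on the same strand, so these counts are uncertain.

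Over the 19 enzymes, 10 log2 fold changes were positive and 9 negative, with a median of 0.025 and a range from -0.37 to 0.60. For 18 of the 19 the 95% interval lay within a 2-fold change in either direction, Mvd being the exception, and every interval included 0. The summed level of the enzymes was 3984, 4137 and 5460.3 CPM with compound 33, against 4824, 3849 and 4390.1 CPM with DMSO. The highest library had compound 33, and the other 2 compound 33 libraries lay in the lower part of the DMSO range. By step, the sum of Acat2 and Hmgcs1 was 949, 902 and 933 CPM with compound 33, against 1112, 946 and 968 CPM with DMSO. The 8 enzymes after lanosterol summed to 2046, 2073 and 2799 CPM with compound 33, against 2586, 1828 and 2246 CPM with DMSO. No step separated the groups.

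**Figure D2:**
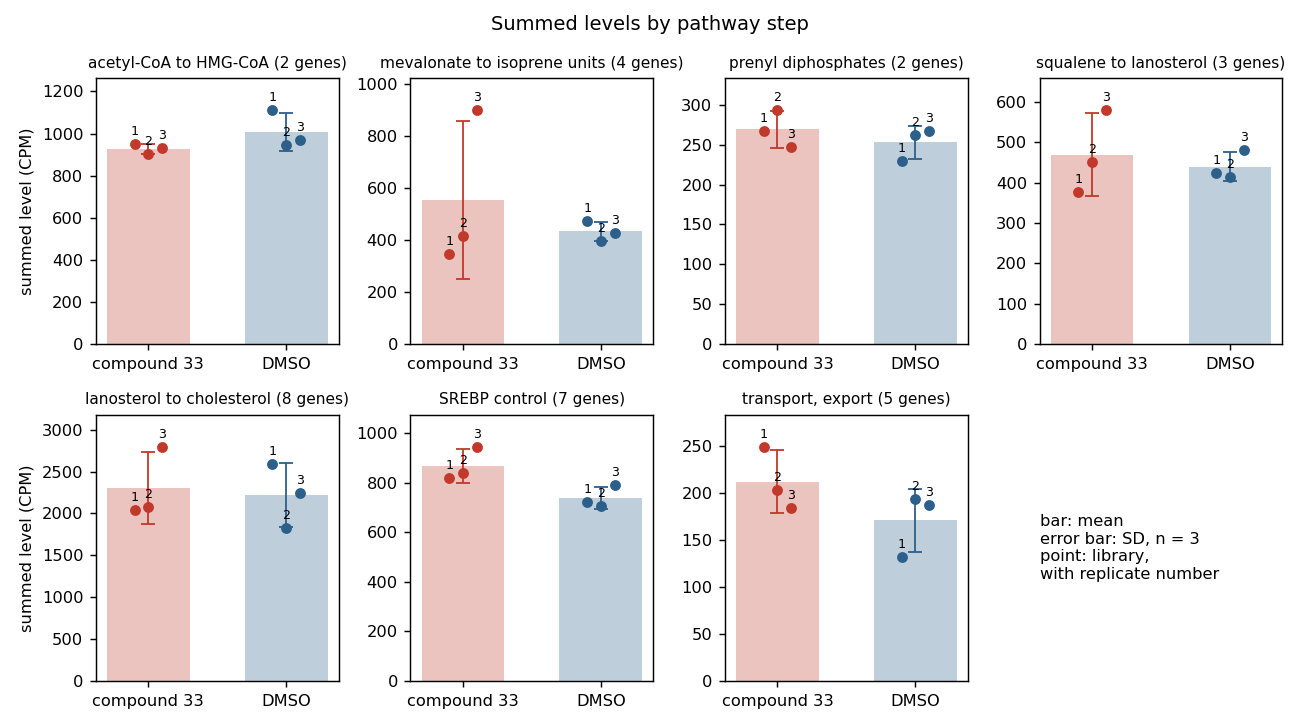
Summed CPM of the genes of each pathway step, with bars for means, error bars for SD over 3 libraries and numbered points for libraries, compound 33 left of DMSO. The groups overlap at all 5 steps of synthesis, do not overlap for the 7 genes of SREBP control (819 to 947 CPM with compound 33, 707 to 791 CPM with DMSO), and overlap for transport and export.

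All 7 genes that control SREBP had a positive log2 fold change, and none passed the test. Srebf2, which encodes SREBP2, the main activator of the sterol enzymes, stood at 114, 124 and 114 CPM with compound 33, against 64.2, 84.4 and 91.9 CPM with DMSO. Every compound 33 library lay above every DMSO library, and the compound 33 values were tightly grouped. The mean level was 118 ± 5.82 CPM with compound 33 and 80.1 ± 14.3 CPM with DMSO (SD, n = 3 each), and the log2 fold change was 0.55 (SE 0.21, 95% interval 0.088 to 1.02, adjusted p = 0.683) in edgeR's test, with an unadjusted p of 0.0233. With each library left out in turn its log2 fold change ran between 0.42 without DMSO replicate 1 and 0.66 without DMSO replicate 3, and its unadjusted p was not under 0.05 without DMSO replicate 1 or without compound 33 replicate 2. Srebf2 lies on chromosome 15 (82147181 to 82205379) of mm10 on the plus strand, and its exons overlap those of no other annotated gene. Srebf1, which encodes the SREBP1 forms that act more on fatty acid genes, stood at 81.3, 77.9 and 69.0 CPM with compound 33, against 58.3, 63.2 and 73.8 CPM with DMSO. Its groups overlapped, and its log2 fold change was 0.22 (95% interval -0.23 to 0.68).

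Insig2 and Insig1 encode the anchors that keep Scap in the endoplasmic reticulum. Insig1 is itself a target of SREBP. Insig2 stood at 61.1, 91.2 and 164 CPM with compound 33, against 49.3, 51.9 and 95.7 CPM with DMSO. The compound 33 libraries were widely spread, and DMSO replicate 3 lay among them. Its log2 fold change of 0.68 (SE 0.35, 95% interval -0.091 to 1.44, adjusted p = 0.769) was the largest of the members and did not pass edgeR's test. It ran between 0.22 without compound 33 replicate 3 and 1.06 without DMSO replicate 3. Insig1 stood at 74.0, 63.8 and 84.4 CPM with compound 33, against 75.8, 67.7 and 43.9 CPM with DMSO, with DMSO replicate 3 the lowest library and a log2 fold change of 0.25 (95% interval -0.28 to 0.79). So the same DMSO library was highest of its group for Insig2 and lowest for Insig1.

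Scap, the escort itself, averaged 88.4 ± 11.1 CPM with compound 33 and 76.4 ± 20.5 CPM with DMSO (SD, n = 3 each), with overlapping groups and a log2 fold change of 0.21 (95% interval -0.31 to 0.73). The site-1 protease gene Mbtps1 stood at 377, 372 and 414 CPM with compound 33, against 397, 318 and 398 CPM with DMSO, with overlapping groups, and its log2 fold change was 0.064 (95% interval -0.37 to 0.50). The site-2 protease gene Mbtps2 was far lower, at 20.1 ± 6.02 CPM with compound 33 and 19.5 ± 2.31 CPM with DMSO (SD, n = 3 each), with a log2 fold change of 0.056 (95% interval -0.58 to 0.69). All 7 control genes were positive, where 48.9% of all genes tested were, and the median was 0.22 beside -0.0091 over all genes. Their sum was 819, 842 and 947 CPM with compound 33, against 722, 707 and 791 CPM with DMSO. Without Srebf2 the sum was 705, 718 and 833 CPM with compound 33, against 658, 623 and 699 CPM with DMSO. The groups did not overlap there either, but by a narrow margin at the nearest pair, 705 against 699 CPM. Mbtps1, whose groups overlapped, made up more of this sum than any other gene. These are descriptions of 7 genes from the same 6 libraries, and the shift of the sum was not tested.

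**Figure D3:**
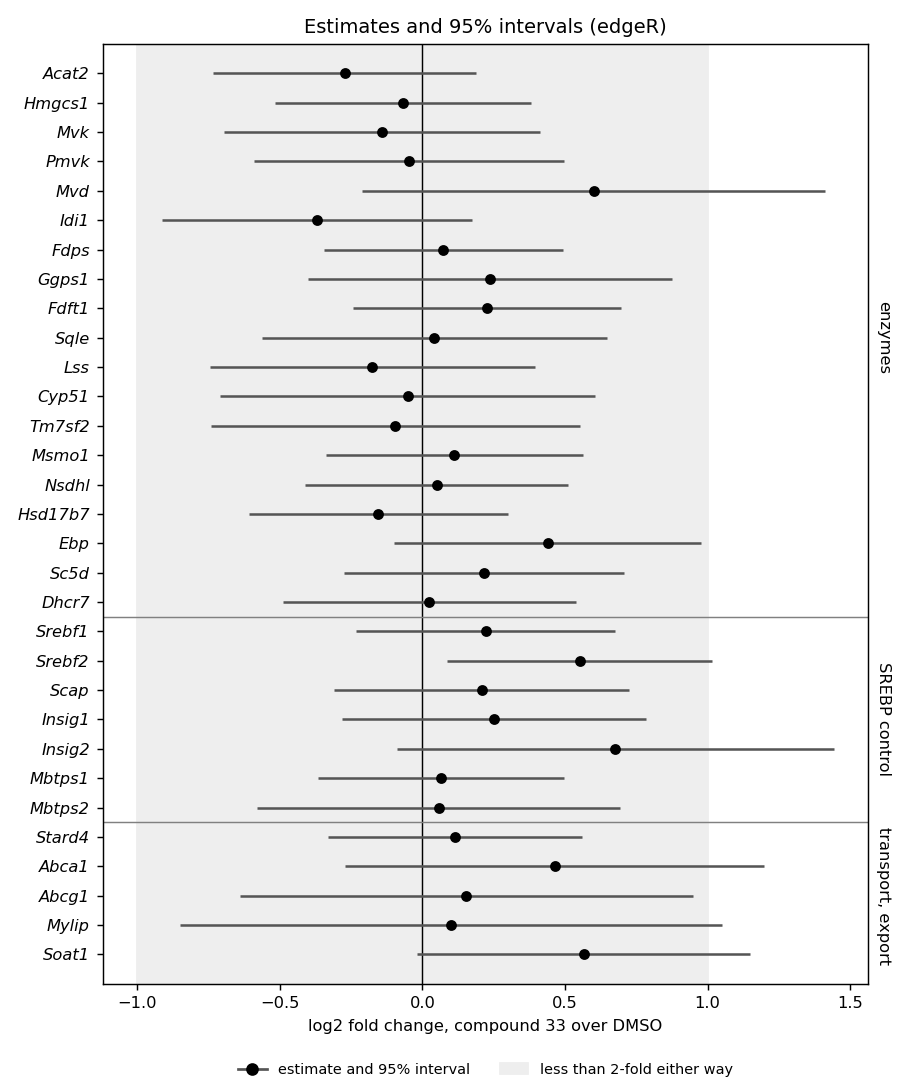
Log2 fold change of each gene, compound 33 over DMSO, with its 95% interval from edgeR and a grey band for less than 2-fold in either direction. The interval lies inside the band for 25 of 31 genes and includes 0 for all but Srebf2.

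Genes that move cholesterol within and out of the cell, or store it, were also all positive and all short of the threshold. Stard4, a carrier of cholesterol between membranes and a target of SREBP2, stood at 79.5, 81.7 and 76.7 CPM with compound 33, against 63.6, 77.6 and 78.3 CPM with DMSO. Both groups were narrow and overlapped, and the log2 fold change was 0.11 (95% interval -0.33 to 0.56). Soat1, which esterifies cholesterol for storage, stood at 86.2, 55.6 and 41.7 CPM with compound 33, against 40.3, 40.6 and 42.5 CPM with DMSO. The 3 DMSO libraries lay between 40.3 and 42.5 CPM and compound 33 replicate 3 fell among them, while the other 2 compound 33 libraries lay above. Its log2 fold change was 0.56 (SE 0.27, 95% interval -0.018 to 1.15, adjusted p = 0.722) in edgeR's test, and it ran between 0.24 without compound 33 replicate 1 and 0.78 without compound 33 replicate 3.

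Abca1, which loads cholesterol onto apolipoprotein, stood at 48.3, 37.7 and 43.8 CPM with compound 33, against 13.8, 45.1 and 34.1 CPM with DMSO. DMSO replicate 1 was by far the lowest, DMSO replicate 2 lay among the compound 33 libraries, and DMSO replicate 3 lay just below them. The log2 fold change was 0.46 (95% interval -0.27 to 1.20), and leaving out DMSO replicate 1 gave 0.13, while leaving out DMSO replicate 2 gave 0.82. Abcg1, the other exporter, averaged 13.9 ± 3.24 CPM with compound 33 and 12.5 ± 5.05 CPM with DMSO, and Mylip, the ligase that marks lipoprotein receptors for degradation, averaged 14.5 ± 8.72 CPM with compound 33 and 13.0 ± 5.36 CPM with DMSO (SD, n = 3 each). These were the lowest members, with 13 to 42 reads per library for Abcg1 and 14 to 52 for Mylip, and their log2 fold changes were 0.15 (95% interval -0.64 to 0.95) and 0.10 (95% interval -0.85 to 1.05). The 3 LXR targets Abca1, Abcg1 and Mylip shared their lowest library, DMSO replicate 1.

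How far these data bound a change differed by gene. Over all 31 members the 95% interval lay within 2-fold in both directions for 25, or 80.6%, beside 79.3% of the 7649 tested genes whose mean level lay within the members' range. The interval reached beyond 2-fold for Mvd, Insig2, Srebf2, Soat1, Abca1 and Mylip, in each case on the higher side. The upper ends were widest for Insig2, at 2.72-fold, and Mvd, at 2.66-fold, and that of Srebf2 was 2.02-fold. The median size of a log2 fold change without its sign was 0.15 for the members and 0.22 for all genes tested, or 0.20 for those within the members' range of levels. An adjusted p above the threshold in edgeR does not show that a gene was the same in both groups.

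Variation among libraries differed by gene and by library. The coefficient of variation of a member had a median of 15.0% over compound 33 libraries and 18.9% over DMSO libraries, against 19.7% and 22.3% for all genes tested. These coefficients include counting noise, and only 7649 of the 10124 genes tested had a mean level within the members' range. The medians are therefore not matched for level. The coefficient of a member ran from 3.14% for Stard4 to 68.8% for Mvd with compound 33, and from 2.86% for Soat1 to 51.3% for Abca1 with DMSO. Compound 33 replicate 3 held the highest value of 10 of the 31 members (32.3%, against 20.2% of all genes), among them Mvd, Sqle, Ebp, Sc5d and Insig2. DMSO replicate 1 held the lowest value of 13 of the 31 (41.9%, against 22.3% of all genes), among them Srebf2, Srebf1, Scap, Insig2, Abca1, Abcg1 and Mylip, and yet the highest value of Cyp51 and Hmgcs1. The part of these 2 libraries in the positive signs of the control and transport genes was not tested beyond leaving them out. Without DMSO replicate 1, Abcg1 (-0.11) and Mylip (-0.17) turned negative and Abca1 stood at 0.13, so 3 of the 5 transport genes had a positive log2 fold change, while all 7 control genes did. Without compound 33 replicate 3, Mbtps2 (-0.13) turned negative and the 5 transport genes were positive. Over the 31 members, 26 signs were as with all libraries in each of these 2 cases.

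**Figure D4:**
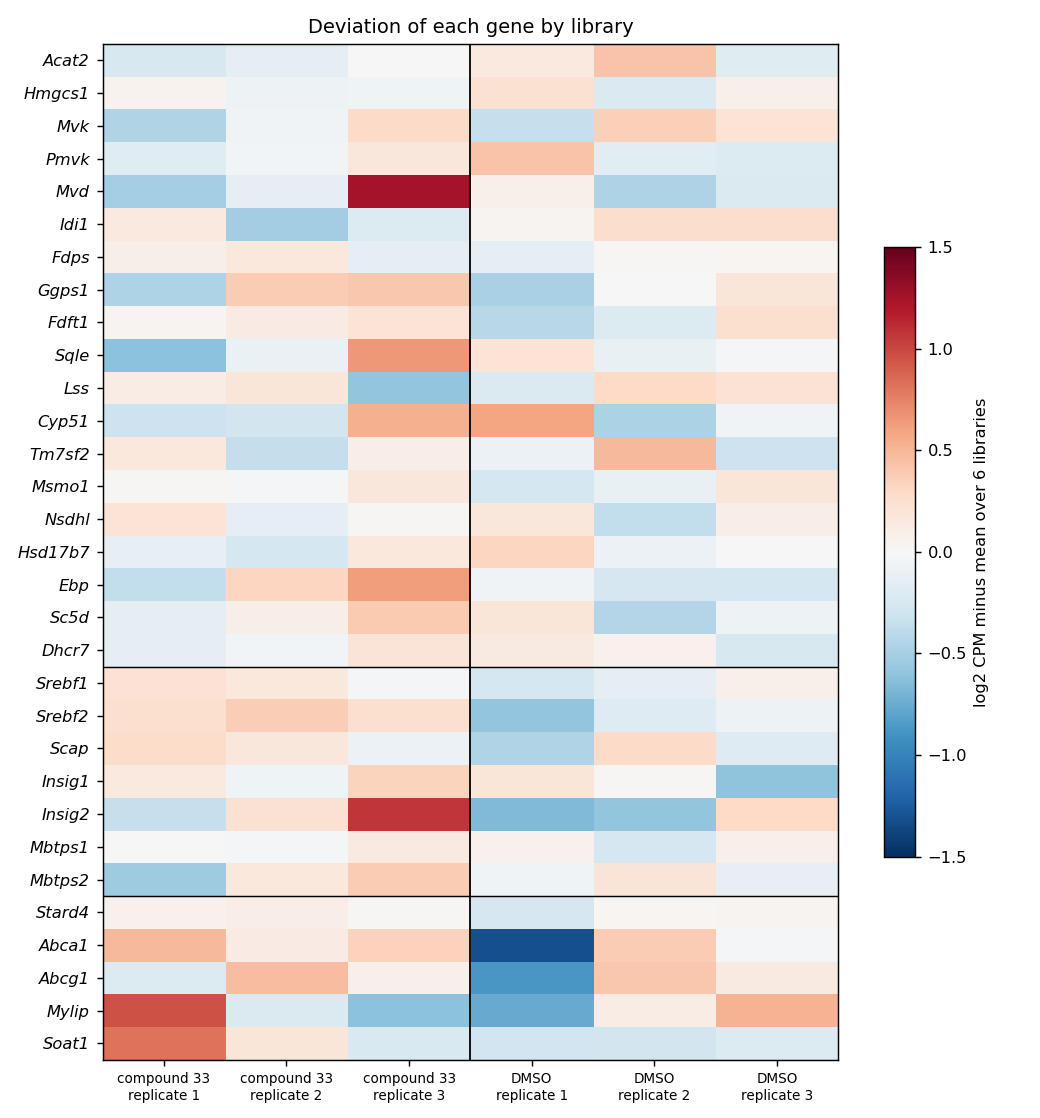
Log2 CPM of each gene minus its mean over the 6 libraries, with compound 33 libraries left of the line and DMSO libraries right of it. Compound 33 replicate 3 is high for Mvd, Sqle, Ebp and Insig2, and DMSO replicate 1 is low for Abca1, Abcg1, Mylip and Srebf2 and high for Cyp51.

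Related genes of lipid metabolism were read from 5 lists in the same fit, and none of their members passed edgeR's test. The list of fatty acid synthesis and other SREBP-linked genes, Aacs, Pnpla3 and Tmem97 among them, had 15 of 17 listed genes tested. Of these, 8 were positive and 7 negative, with a median log2 fold change of 0.015 and 0 under an unadjusted 0.05. Its most abundant members were the desaturase Scd2, at 756 ± 42.7 CPM with compound 33 and 885 ± 199 CPM with DMSO, and the elongase Elovl5, at 576 ± 119 CPM with compound 33 and 561 ± 134 CPM with DMSO (SD, n = 3 each), with log2 fold changes of -0.23 and 0.039.

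The users of isoprenoids, which prenylate proteins or build dolichol and coenzyme Q, had 4 of 13 tested genes positive, 9 negative, and a median of -0.12. Nus1, a subunit of the enzyme that builds the dolichol chain, was the only one of them under an unadjusted 0.05, against 3.23% of all genes in that direction, with 193, 187 and 226 CPM with compound 33, against 391, 229 and 285 CPM with DMSO. Its compound 33 libraries all lay below its DMSO libraries, as for 6.73% of all genes tested, by a narrow margin at the nearest pair. The log2 fold change of Nus1 was -0.58 (SE 0.23, 95% interval -1.07 to -0.080, adjusted p = 0.69) in edgeR's test. Without DMSO replicate 1 it was -0.35, and its unadjusted p in edgeR was above 0.05 there (0.12) and without compound 33 replicate 1 (0.0761) or replicate 2 (0.0937). The 14 listed genes summed to 696, 741 and 711 CPM with compound 33, against 910.5, 826 and 871 CPM with DMSO, without overlap. Without Nus1 they summed to 503, 553 and 485 CPM with compound 33, against 519, 597 and 586 CPM with DMSO, and overlapped.

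Sterol traffic and lipoprotein uptake had 8 of 17 tested genes positive and a median of -0.0084. Of these 17 genes 2, Vldlr and Lrp1, lay under an unadjusted 0.05 as higher with compound 33, against 3.64% of all genes tested. Other receptors of the list did not, with log2 fold changes of 0.51 (95% interval -0.11 to 1.13) for Scarb1 and -0.096 (95% interval -0.65 to 0.46) for Lrp8, which were picked out after their values were seen. Vldlr, a receptor for triglyceride-rich lipoproteins, stood at 15.9, 12.0 and 17.0 CPM with compound 33, against 4.77, 4.96 and 9.75 CPM with DMSO. All compound 33 libraries lay above all DMSO libraries, as for 6.64% of all genes tested, at levels of 9 to 33 reads per library. Its log2 fold change of 1.15 (SE 0.38, 95% interval 0.33 to 1.99, adjusted p = 0.575) did not pass edgeR's test. Lrp1, a large endocytic receptor, stood at 201, 225 and 259 CPM with compound 33, against 129, 166 and 166 CPM with DMSO, also without overlap, with a log2 fold change of 0.57 (SE 0.21, 95% interval 0.12 to 1.02, adjusted p = 0.649) in the same test.

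Genes of oxysterols and LXR had 4 of 6 tested genes positive, and a median of 0.16. Ch25h, which makes 25-hydroxycholesterol, an oxysterol that holds SREBP back, stood at 265, 169 and 237 CPM with compound 33, against 186, 204 and 285 CPM with DMSO, a log2 fold change of -0.010 (95% interval -0.53 to 0.51). The groups were interleaved, and the same held for the LXR target Lpcat3, a phospholipid-remodelling enzyme with a log2 fold change of -0.055 (95% interval -0.66 to 0.55). Genes that degrade or retain parts of the SREBP pathway had 8 of 10 tested genes positive and a median of 0.22, with none under an unadjusted 0.05. Rnf145, a ubiquitin ligase, averaged 141 ± 30.3 CPM with compound 33 and 164 ± 9.42 CPM with DMSO (SD, n = 3 each), with a log2 fold change of -0.22 (95% interval -0.69 to 0.25).

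**Figure D5:**
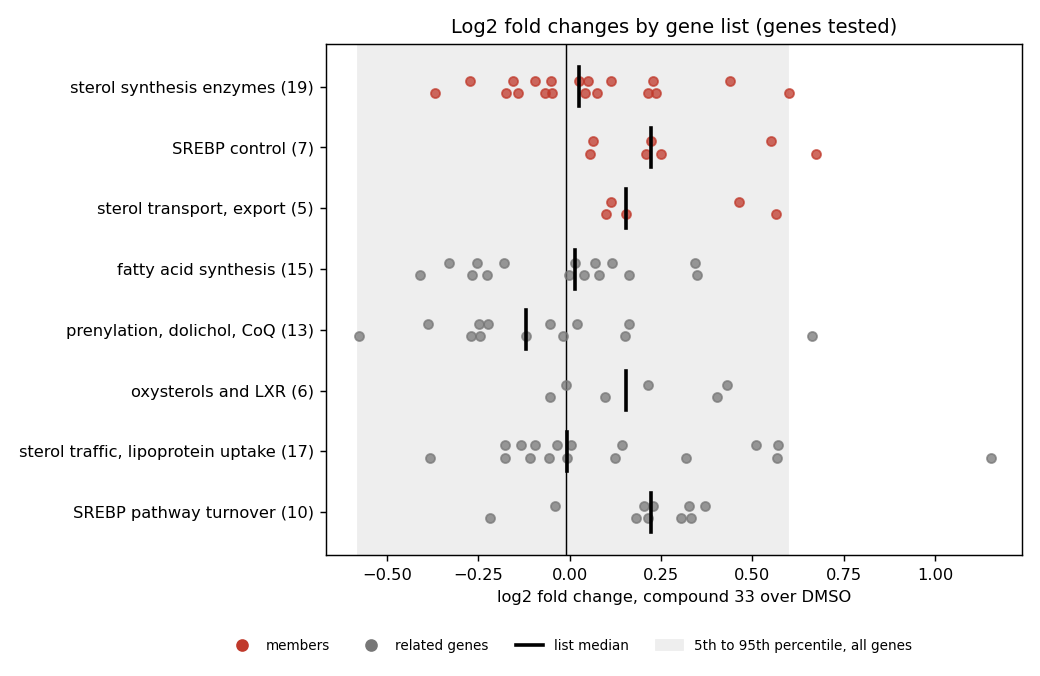
Log2 fold changes, compound 33 over DMSO, of the tested genes of each list, with members in red, related genes in grey, a bar at each list median and a grey band from the 5th to the 95th percentile of all genes tested (-0.58 to 0.60). The thin line is the median of all genes tested (-0.0091). Among the members Insig2 and Mvd lie beyond the band, and among the related genes Vldlr lies farthest out.

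The authors' deposited table holds their own comparison of the same libraries. None of the 31 members has an adjusted p under 0.05 in the authors' deposited table, where 18 of 10063 genes with an adjusted p, or 0.179%, have one. Before adjustment 1 member, Srebf2, lies under 0.05 in the authors' deposited table (p = 0.0245), against 4.2% of all genes with a p there. By its signs, the authors' deposited table has 22 members positive and 9 negative, and the lowest adjusted p of a member there is 0.776. DESeq2, run here as an alternative on the same counts, returned the same values for the members. It is therefore a repeat of the authors' comparison and not a further one.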

How the data were processed

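Per the labels' protocols, RNA of each sample went into QuantSeq 3′ mRNA libraries, which were read on the Ion Proton. Tools in the submitters' processing notes are HISAT2 2.2.1, FastQC 0.11.9, featureCounts 2.0.3 and DESeq2, with the build mm10. The annotation, the use of strand and the handling of multi-gene reads were not given in the sources used here. For each gene symbol and each of the 6 libraries the authors deposited an unnormalized count of reads. A second deposited table holds the authors' comparison: a mean normalized signal, the log2 fold change with its SE, a Wald score, and p-values before and after adjustment.

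Counts were fitted across all genes in R 4.3.3 with edgeR 4.0.16. Genes were kept by filterByExpr (minimum count 10), which left 10124 genes, libraries were scaled by TMM, and the quasi-likelihood F test (robust, two-sided, group as the only term) was adjusted by the Benjamini-Hochberg method over all genes tested. The SE is the unshrunk log2 fold change over √F, with 95% intervals from that test's degrees of freedom; the log2 fold change printed beside an interval is shrunk slightly by a prior count. A value of 1 CPM is 1 read per 1000000 reads of the scaled library. The typical coefficient of variation between libraries beyond counting noise was 23.6%. The script was tested on simulated data. Alternatives were other scalings and filters, limma-voom (limma 3.58.1), DESeq2 1.42.0, a non-robust edgeR fit, the replicate number as a block and each library left out.

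The members and lists were chosen with earlier results of these data known. All 31 members are named, and from each related list the genes under an unadjusted p of 0.05 or else the 2 most abundant; 1 gene that this rule names is not reported here. Coordinates and overlaps are from GENCODE M21, and Vldlr, Lrp1 and Nus1 overlap no exon of another gene. Exons of further members overlap the annotated genes Gm48342 (Hmgcs1), Gm48574 (Idi1), Gm43738 (Fdps), Ctsb (Fdft1), 4930483K19Rik (Lss), Rai1 and Mir6922 (Srebf1), 5830462I19Rik (Scap) and Yy2 (Mbtps2), and those of related genes overlap Mir5114 (Scd2), Gm26902 (Ch25h) and Emg1 (Lpcat3), which leaves those counts uncertain.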

Additional observations from a re-analysis of the deposited data

How the results depend on the processing

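Under all 15 alternatives 0 of the 31 members and 0 of the related genes passed the adjusted threshold, and the median log2 fold change of the members stayed between 0.066 and 0.13. The number of genes passing in the whole table was 3 as reported, 21 without a low-count filter and 7 with the replicate block. It was 18 in DESeq2, as in the authors' deposited table, and ran from 1 to 7 with each library left out. Of 597 log2 fold changes of named genes under the alternatives, 561 kept their sign and 36 did not: those of Mvd, reported at 0.60, and of genes reported between -0.18 and 0.15. In limma-voom these were Sqle (-0.046), Mylip (-0.027) and Lpcat3 (0.025), and with the replicate block Sqle (-0.040) and Lpcat3 (0.016).

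With each library left out in turn, the log2 fold changes that changed sign ranged as follows for Mvk (-0.33 to 0.022), Pmvk (-0.16 to 0.18), Cyp51 (-0.38 to 0.29), Nsdhl (-0.090 to 0.15), Mylip (-0.47 to 0.43), Lpcat3 (-0.31 to 0.30), Tm7sf2 (-0.26 to 0.18), Abcg1 (-0.11 to 0.40), Ch25h (-0.15 to 0.20), Mvd (-0.11 to 0.90), Sqle (-0.36 to 0.29), Lss (-0.32 to 0.039), Dhcr7 (-0.084 to 0.10), Mbtps2 (-0.13 to 0.26), Elovl5 (-0.13 to 0.21), Hmgcs1 (-0.17 to 0.040) and Mbtps1 (-0.027 to 0.12).

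With the replicate block Insig2 joined Srebf2 under an unadjusted 0.05. Whether equal numbers mark paired libraries is not in the labels. Deviations from the group means of same-numbered libraries correlated across genes at -0.030, 0.21 and 0.077. Those of differently numbered libraries of the 2 groups correlated at -0.23 to 0.15, and not every library correlated best with its own number. Deviations sum to 0 within each group, so these few values cannot decide whether the libraries were paired. The number of members under an unadjusted 0.05 was 1 as reported and 4 without compound 33 replicate 1 (Insig2, Ebp, Mvd and Srebf2), and 0 without compound 33 replicate 2 or DMSO replicate 1, in edgeR. With a stricter filter 29 members were tested, and Vldlr was not tested. The causes were not tested. Read counts per library were low for Abcg1 (13 to 42), Mylip (14 to 52) and Vldlr (9 to 33).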
